A study of Mus musculus with 47 samples.

Results

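Ezh2 was removed from cranial neural crest cells of the mouse, and the comparison described here asks what that loss did in the crest of the frontonasal process (FNP), from which forehead and nose form. RNA-seq counts of 3 libraries of FNP crest with the genotype Ezh2cKO, a conditional knockout, were set against 3 libraries of wild-type FNP crest, both taken at E10.5, E being embryonic days. These 6 libraries were chosen by their labels from 47 in the whole series. Another 17 libraries of E10.5, Ezh2cKO and wild type of the first pharyngeal arch, in its maxillary (Mx) and mandibular (Md) portions, and of the second arch (PA2), were used where the frontonasal effect was set against that of the arches. All cells were dissected, dissociated with trypsin and sorted by fluorescence, per the labels' protocols. What drives the Cre recombinase, which reporter served the sort and whether embryos were pooled is not stated in the labels. The labels number the libraries without saying that they came from different embryos or litters. The p-values therefore measure how far these libraries differ, which may not be the spread between litters.

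EZH2 is the methyltransferase within Polycomb repressive complex 2 (PRC2). The complex methylates lysine 27 of histone H3 over silent genes, and canonical Polycomb repressive complex 1 (PRC1) reads that mark. Developmental regulators that a cell does not use are classical targets, the Hox genes above all. Crest of the FNP and of the first arch carries no Hox expression, whereas crest of the second arch expresses Hoxa2. Hand and Dlx genes pattern the arches, and Alx, Pax and Tfap2 genes mark the frontonasal crest.

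Library totals were 29260736 to 30613256 counts in Ezh2cKO and 28439255 to 34202019 counts in wild type, and mitochondrial genes took 29.3% to 32.4% of them in Ezh2cKO and 28.2% to 33.6% in wild type. Wild-type replicate 1 stood apart from the others. Chi-square per degree of freedom, where 1 is counting noise alone, was 42.3 and 44.4 between it and wild-type replicates 2 and 3, against 6.19 between those 2 and 4.95 to 8.13 among the Ezh2cKO libraries. Wild-type replicate 1 had the mitochondrial share of 33.6%, against 28.2% and 28.9% in wild-type replicates 2 and 3. The chi-square includes mitochondrial genes, and their part in it was not tested. Counts of both Xist and the Y-linked Ddx3y were present in each of the 6 libraries, so RNA of both sexes was in each. Xist had 36179, 50649 and 22869 counts in Ezh2cKO and 43971, 14521 and 53455 counts in wild type. Ddx3y had 847, 504 and 1129 counts in Ezh2cKO and 745, 1647 and 852 counts in wild type. The mix of the sexes thus differed between libraries of 1 genotype. Levels are given in CPM, counts per 1e6 counts after TMM scaling of the library totals. The mesenchymal crest genes Pdgfra, Prrx1, Prrx2 and Twist1 were present in all 6 libraries and none was called. Pdgfra, a growth factor receptor of crest mesenchyme, had 367, 397 and 365 CPM in Ezh2cKO and 292, 418 and 403 CPM in wild type, and Twist1 had 129.8, 132 and 117 CPM in Ezh2cKO and 165, 126 and 150.1 CPM in wild type. Fewer cells of a type and less RNA per cell cannot be told apart in such bulk samples.

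Ezh2 itself (ENSMUSG00000029687, chromosome 6, 47530274 to 47595341 on GRCm38) was measured first. It had 149, 125 and 125 CPM in the 3 Ezh2cKO libraries, against 405, 356 and 352 CPM in the 3 wild-type libraries. All Ezh2cKO libraries lay below all wild-type libraries, with a log2 fold change of -1.48 ± 0.10 (± standard error) and an adjusted p of 1.98e-14 by edgeR's quasi-likelihood test with Benjamini-Hochberg adjustment over all 20560 genes tested. That test, with a gene called at an adjusted p under 0.05, stands behind every adjusted p and every call below, and fold changes are Ezh2cKO over wild type. The counts cover the full gene and so do not check the loss of single exons, and the remaining level is not the share of undeleted cells.

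Of 20560 genes tested, 1022 were called higher (4.97%) and 376 lower (1.83%), 1398 in all (6.8%). The higher genes changed more. Their median log2 fold change was 1.33, and 690 of them differed by at least 2-fold, whereas the lower genes had a median of -0.45 and 61 of 376 differed by at least 2-fold. Among the higher genes, 495 averaged under 1 CPM in wild type, which is 48.4%, and 56 had no wild-type count at all. Both counts depended on single libraries. Without wild-type replicate 1, 844 genes were called higher and 174 lower, and 761 of the 1022 and 136 of the 376 were again called. Without Ezh2cKO replicate 1, 2 or 3, the lower calls numbered 164, 158 and 236, and the higher calls 798, 792 and 850. Without wild-type replicate 2 or 3 the lower calls numbered 406 and 413, and the higher calls 823 and 838. A fit on the 6 FNP libraries alone called 957 genes higher and 153 lower. Of the 1022 and the 376, 817 and 122 were again called.

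The wild-type FNP libraries of E11.5, which belong to neither group, gave a separate scale of how active each gene is in this crest. Among 1281 genes at 0.1 CPM or less at E11.5, 128 were called higher at E10.5 (9.99%) and 1 lower (0.0781%). Among 1981 genes over 100 CPM at E11.5, 27 were called higher (1.36%) and 76 lower (3.84%). The share called higher was thus largest among genes that wild-type frontonasal crest of the next day hardly used, and the share called lower was largest among those it used most. The power to call a small change also grows with the level. Genes were tested only where some of the 47 libraries, Ezh2cKO among them, held enough counts. A gene low at E11.5 could so enter through high Ezh2cKO counts, and a gene near 0 has little room to fall. The part of this selection in the shares was not tested.

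**Figure D1:**
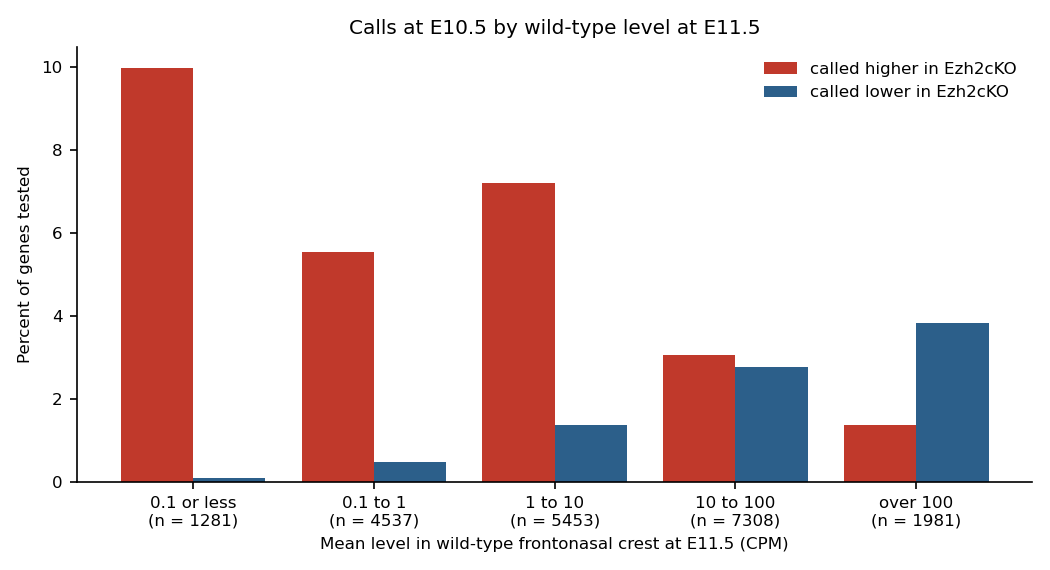
Percent of tested genes called higher or lower in Ezh2cKO FNP crest at E10.5 (y axis), by their mean CPM in 3 wild-type FNP libraries of E11.5 (x axis, with the number of genes in each class). The higher share is 9.99% in the lowest class and 1.36% in the highest, and the lower share is 0.0781% and 3.84%. Genes low at E11.5 could enter the test through their Ezh2cKO counts.

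Polycomb genes moved in a mixed way. Of 11 PRC2 components, 1 was called higher (9.09%) and 2 lower (18.2%), beside 4.97% and 1.83% of all genes. The deleted gene Ezh2 is 1 of the 2. Phf19, a PRC2 cofactor that binds methylated lysine 36 of histone H3, had 2.42, 3.36 and 2.75 CPM in Ezh2cKO and 0.514, 0.718 and 0.977 CPM in wild type, and rose by 1.93 ± 0.34 on the log2 scale (adjusted p = 9.97e-05). Eed, the subunit that reads the mark and activates the enzyme, had 41.1, 40.4 and 39.8 CPM in Ezh2cKO and 67.1, 52.7 and 46.7 CPM in wild type (log2 fold change -0.46 ± 0.14, adjusted p = 0.0462), a call that 10 of 13 alternative settings did not make, among them those without any 1 Ezh2cKO library or without wild-type replicate 1 or 2 (adjusted p of 0.0195 to 0.368 over the 6 fits that left out 1 library). Ezh1, the paralogue of Ezh2, stayed uncalled at 18.8, 14.6 and 15.03 CPM in Ezh2cKO and 15.6, 16.8 and 14.8 CPM in wild type (log2 fold change 0.04 ± 0.18, adjusted p = 0.96), with a 95% interval of the log2 fold change of -0.32 to 0.39.

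Of 13 components of canonical PRC1, 4 were called higher (30.8%) and 0 lower, beside 4.97% and 1.83% of all genes. Bmi1 (ENSMUSG00000026739, chromosome 2, 18677018 to 18686629), a RING-finger subunit that represses Cdkn2a, was at 170.3, 184 and 174 CPM in Ezh2cKO and 56.0, 55.8 and 61.7 CPM in wild type, a log2 fold change of 1.61 ± 0.11 (adjusted p = 7.14e-14). The groups did not overlap. The chromodomain genes Cbx7 and Cbx8, whose proteins bind methylated lysine 27, were called higher as well. Cbx7 had 1.43, 2.168 and 1.73 CPM in Ezh2cKO and 1.03, 0.820 and 0.553 CPM in wild type, and Cbx8 5.77, 5.17 and 6.36 CPM in Ezh2cKO and 1.98, 3.08 and 3.71 CPM in wild type. Cbx7 changed by 1.16 ± 0.28 and Cbx8 by 0.97 ± 0.23 (adjusted p = 0.00478 and 0.00347). Cbx7 was not called without wild-type replicate 3 (adjusted p = 0.0565), nor Cbx8 without wild-type replicate 1 (adjusted p = 0.0565). The ring subunits Ring1 and Rnf2 were not called, nor was Cbx2.

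Hox genes were expressed from all 4 clusters in Ezh2cKO FNP crest. All 12 anterior Hox genes (paralogues 1 to 4) and 26 of 27 posterior ones (paralogues 5 to 13) were called higher, beside 4.97% of all genes. Each of the 39 had counts in each Ezh2cKO library, whereas 6, 10 and 6 of the 39 had a count in wild-type replicates 1, 2 and 3. Summed over the 39 genes, the level was 101.3, 85.4 and 75.7 CPM in Ezh2cKO, against 0.633, 0.683 and 0.423 CPM in wild type. The sums do not overlap, and 24 of the 39 genes had no wild-type count. The median log2 fold change of the anterior genes was 7.54, or 5.73 with genes at 0 wild-type counts set at their lower bound, and that of the posterior genes was 7.76, or 4.99. Over all genes tested it was -0.02. The uncalled gene, Hoxc11, had 0.356, 0.289 and 0.0723 CPM in Ezh2cKO and 0 counts in each wild-type library (adjusted p = 0.0512). Without wild-type replicate 1, which also lowers the number of samples, 10 of 12 and 22 of 27 were called. Hoxa4 was not called in any of the 6 fits that left out 1 library (adjusted p of 0.0561 to 0.185), and with no filter, DESeq2 or the replicate number as a block it was not called either (adjusted p = 0.0577, 0.0556 and 0.0606). Hoxd1 was not called without Ezh2cKO replicate 1 or 2 or any 1 wild-type library (adjusted p of 0.075 to 0.105 in those 5 fits).

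Hoxa2 (ENSMUSG00000014704, chromosome 6, 52162351 to 52165413), the selector of second-arch identity, had 4.06, 3.61 and 3.07 CPM in Ezh2cKO and 0 counts in each wild-type library. This is at least 102-fold higher, taken against 3 counts over the wild-type group (adjusted p = 2.07e-10). Its Ezh2cKO mean was 2.86% of the 125 ± 1.25 CPM in PA2 of wild type, where the gene is active. Hoxb3 had 8.73, 8.67 and 7.33 CPM in Ezh2cKO and 0, 0.0342 and 0.0651 CPM in wild type, 234 times (95% counting interval 79.9 to 1139.7) the wild-type level over 3 wild-type counts (adjusted p = 3.41e-15), and stood above the 3.46 ± 0.297 CPM in PA2 of wild type.

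Posterior genes, known from trunk and limbs, were among the highest. Hoxd13, a gene of digits and genitals, had 11.3, 7.95 and 7.26 CPM in Ezh2cKO and 0.0395, 0.0683 and 0 CPM in wild type, a ratio of 251 times (95% counting interval 85.6 to 1221) (adjusted p = 4.03e-12). Hoxa10, a gene of the lumbar trunk and uterus, had 11.9, 9.22 and 8.09 CPM in Ezh2cKO and 0.0395, 0 and 0.0651 CPM in wild type, a ratio of 277 times (95% counting interval 94.6 to 1348). Hoxa7 and Hoxc8, genes of the thoracic trunk, were at 4.85, 4.99 and 3.87 CPM and at 4.35, 4.55 and 4.70 CPM in Ezh2cKO. Hoxa7 had 0 counts in each wild-type library and was at least 129.8-fold higher, and Hoxc8 had 0, 0.0342 and 0 CPM in wild type.

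Levels per kb of exon allow genes to be set side by side. In Ezh2cKO they were highest for Hoxd13 (3.55 CPM per kb), Hoxb3 (2.74), Hoxa10 (2.54) and Hoxc8 (1.97), all in CPM per kb, and lowest for Hoxa4 (0.0675), Hoxd11 (0.0728) and Hoxd1 (0.0772). Within the HoxD cluster Hoxd13 lay next to Hoxd12 and Hoxd11 at 0.101 and 0.0728 CPM per kb. The summed level of the Hox genes per cluster, as mean CPM in Ezh2cKO and in wild type, was 25.5 and 0.0571 in HoxA, 22.9 and 0.393 in HoxB, 20.8 and 0.0445 in HoxC, and 18.2 and 0.0851 in HoxD. Hoxb9, with 4.56, 4.05 and 2.38 CPM in Ezh2cKO and 0.356, 0.308 and 0.195 CPM in wild type (log2 fold change 3.68 ± 0.45, adjusted p = 6.71e-07), carried most of the wild-type sum of HoxB.

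**Figure D2:**
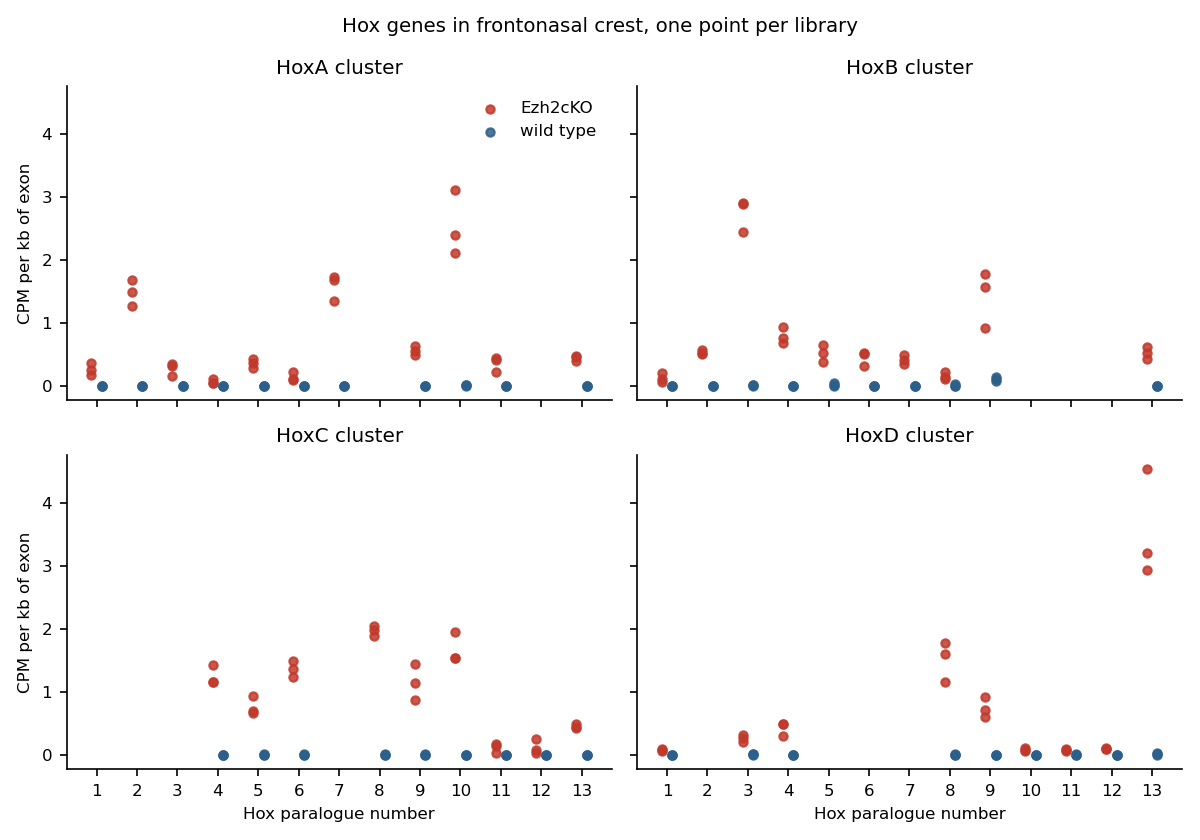
CPM per kb of exon (y axis) of each Hox gene by paralogue number (x axis) in the 4 clusters, 1 point per library, Ezh2cKO left and wild type right of each position. Ezh2cKO points lie above 0 for all 39 genes and peak at Hoxd13, Hoxb3 and Hoxa10, and wild-type points lie at or near 0.

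Other genes inside the clusters were higher too, and most genes beside the clusters were not. Of 17 other genes lying between the ends of a cluster, 16 were called higher, among them the antisense transcripts Hoxb3os and Hotair, and the pseudogene Gm11539 was not. Of 16 genes flanking the clusters, the 2 nearest tested protein-coding genes on each side, 1 was called higher and 0 lower. This is near the 4.97% and 1.83% of all genes. These neighbours were chosen after values had been seen. The flanking gene called higher was Skap2, a Src kinase adaptor 143 kb from the HoxA cluster, with 10.4, 9.87 and 8.38 CPM in Ezh2cKO and 0.949, 1.33 and 1.37 CPM in wild type (log2 fold change 2.96 ± 0.23, adjusted p = 1.43e-12). Hoxb3os had 17.0, 18.8 and 14.3 CPM in Ezh2cKO and 0.0395, 0.103 and 0.0651 CPM in wild type, and Hotair 0.321, 0.361 and 0.686 CPM in Ezh2cKO and 0 counts in each wild-type library. The libraries do not mark strand, so reads of an antisense transcript and of the Hox gene it overlaps cannot be told apart.

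The starts of 4 genes that rose are shown because PRC2 targets in mammals are known for starts dense in the dinucleotide CG. Each line gives the 250 bases upstream of a RefSeq start (GRCm38.p6), 5′ to 3′, with every CG in capitals.
Hoxd13: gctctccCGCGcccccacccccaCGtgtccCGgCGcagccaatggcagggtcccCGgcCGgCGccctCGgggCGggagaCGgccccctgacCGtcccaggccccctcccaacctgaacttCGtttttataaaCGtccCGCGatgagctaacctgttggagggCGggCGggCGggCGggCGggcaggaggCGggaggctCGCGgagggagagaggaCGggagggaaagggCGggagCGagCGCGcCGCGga
Hand2: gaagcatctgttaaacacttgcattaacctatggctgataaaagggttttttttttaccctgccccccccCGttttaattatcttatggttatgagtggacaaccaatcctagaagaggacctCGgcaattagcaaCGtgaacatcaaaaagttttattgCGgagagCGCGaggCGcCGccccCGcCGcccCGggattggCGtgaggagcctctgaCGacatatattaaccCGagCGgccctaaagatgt
Cdkn2a: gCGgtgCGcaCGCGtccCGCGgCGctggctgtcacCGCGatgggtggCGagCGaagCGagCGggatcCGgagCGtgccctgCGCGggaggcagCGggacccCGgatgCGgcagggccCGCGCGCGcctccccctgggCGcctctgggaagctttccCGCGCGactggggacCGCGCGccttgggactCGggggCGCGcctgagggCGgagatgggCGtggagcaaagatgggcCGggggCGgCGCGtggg
Bmi1: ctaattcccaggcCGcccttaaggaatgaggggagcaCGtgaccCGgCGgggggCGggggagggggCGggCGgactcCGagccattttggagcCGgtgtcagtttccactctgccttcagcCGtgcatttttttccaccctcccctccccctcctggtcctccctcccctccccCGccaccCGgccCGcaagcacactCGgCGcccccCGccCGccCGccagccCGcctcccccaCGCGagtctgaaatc
They lie at chr2:74667975-74668224, plus strand (Hoxd13), chr8:57320733-57320982, plus strand (Hand2), chr4:89294620-89294869, minus strand (Cdkn2a) and chr2:18676768-18677017, plus strand (Bmi1). CG, the same on both strands, occurs 31 times upstream of Hoxd13, 15 times upstream of Hand2, 40 times upstream of Cdkn2a and 21 times upstream of Bmi1. Of all 32851 starts in the same table, 5.19%, 27.3%, 1.31% and 16.3% hold at least that many, and the median is 6. The starts shown are the RefSeq ones nearest the 5′ end of the transcript given with the counts. A gene can have other starts, and counts per gene do not tell which was used. A set comparison is not given, since the table matched under 80% of the genes tested.

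Many regulators of the pharyngeal arches, the next territory along the head, were called higher. Of 11 distal arch regulators 6 were called higher (54.5%) and 0 lower, and of 11 maxillary and proximal arch regulators 7 were called higher (63.6%) and 0 lower, beside 4.97% and 1.83% of all genes. Their median log2 fold changes were 1.72 and 0.98, against -0.02 over all genes. Without wild-type replicate 1 the counts were 5 and 7.

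Hand2 (ENSMUSG00000038193, chromosome 8, 57320983 to 57324517), which marks the distal arch under endothelin signalling, had 0.392, 0.903 and 0.542 CPM in Ezh2cKO and 0 counts in each wild-type library, and was at least 17.4-fold higher (adjusted p = 0.000146). Hand1, its paralogue, had 2.89, 2.75 and 2.168 CPM in Ezh2cKO and 0.0395, 0.103 and 0.130 CPM in wild type (log2 fold change 4.74 ± 0.60, adjusted p = 2.18e-07). Gbx2, a homeobox gene of the mandibular arch, had 1.35, 1.41 and 1.048 CPM in Ezh2cKO and 0, 0.0342 and 0 CPM in wild type, 108 times (95% counting interval 19.03 to 4320.2) the wild-type level (adjusted p = 5.72e-09). For each of the 3 genes the groups did not overlap. Dlx5 and Dlx6, which specify the lower jaw, were called higher too. Dlx5 had 10.8, 10.8 and 9.25 CPM in Ezh2cKO and 3.40, 5.23 and 5.34 CPM in wild type (log2 fold change 1.13 ± 0.18, adjusted p = 1.1e-05), Dlx6 changed by 2.32 ± 0.29 (adjusted p = 1.4e-07) and Dlx4 by 1.72 ± 0.46 (adjusted p = 0.0131). Dlx4 was not called without wild-type replicate 1 (adjusted p = 0.0711) or Ezh2cKO replicate 2 (adjusted p = 0.0698). Barx1, Dlx3, Gsc, Nkx3-2 and Pitx1 were not called.

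Among proximal genes, Dlx2, which acts in the upper and the lower jaw, had 1.35, 1.16 and 1.23 CPM in Ezh2cKO and 0.119, 0.103 and 0.130 CPM in wild type (log2 fold change 3.37 ± 0.42, adjusted p = 1.66e-07), and its neighbour Dlx1 changed by 2.27 ± 0.41 (adjusted p = 0.000124). Sim2 had 1.46, 0.723 and 1.12 CPM in Ezh2cKO and 0, 0.0342 and 0.0651 CPM in wild type, 31.4 times (95% counting interval 10.4 to 155) the wild-type level (adjusted p = 3.52e-07). Lhx6 and Lhx8, LIM genes of the oral side of the arch, changed by 2.31 ± 0.30 and 0.98 ± 0.17 (adjusted p = 4.64e-07 and 9.18e-05). A gene already active in frontonasal crest gained as well. Meis2, a Hox cofactor, had 176, 173 and 147 CPM in Ezh2cKO and 66.9, 63.2 and 52.7 CPM in wild type (log2 fold change 1.44 ± 0.10, adjusted p = 7.37e-14).

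Against crest of the arches themselves most of these levels were low. The Ezh2cKO FNP mean was 0.954% of the highest wild-type arch mean for Hand2 (64.2 ± 3.91 CPM in Md), 3.53% for Hand1, 8.01% for Gbx2, 6.64% for Dlx5, 0.345% for Dlx1, 2.65% for Dlx2 and 2.89% for Lhx6. It was higher for Lhx8 and Meis2, at 18.8% and 21.3%. Of arch genes not called, the mean of Dlx3 was 0.807% and that of Barx1 3.64% of the highest arch. Whether a few arch cells were carried into the Ezh2cKO sort was not tested.

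**Figure D3:**
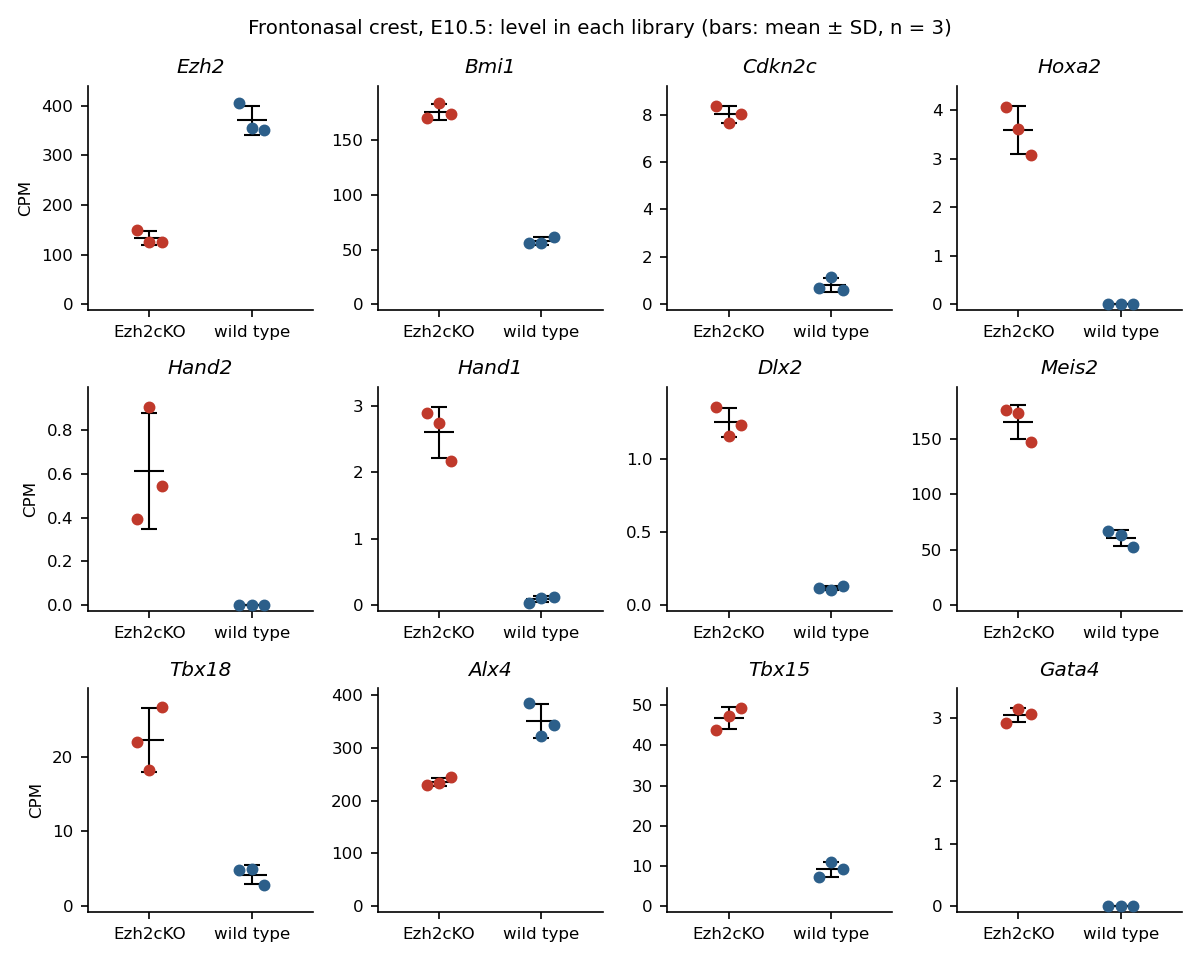
CPM (y axis, from 0) of 12 genes in each Ezh2cKO library and each wild-type library of FNP crest (x axis), with mean and SD of 3 libraries. Ezh2 and Alx4 lie lower in Ezh2cKO, and the other 10 lie higher without overlap, with Hoxa2, Hand2 and Gata4 at 0 in wild type.

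Regulators of frontonasal identity stayed abundant, and none was called higher. Of 8 on the list, 0 were called higher and 1 lower (12.5%), beside 4.97% and 1.83% of all genes, with a median log2 fold change of -0.44. Alx4, an aristaless-related gene of frontonasal crest, had 230.3, 233 and 245 CPM in Ezh2cKO and 385, 323 and 343 CPM in wild type (log2 fold change -0.57 ± 0.13, adjusted p = 0.00194), and its groups did not overlap. Pax7, which marks frontonasal crest at this stage, had 115, 109 and 131 CPM in Ezh2cKO and 226, 168 and 186 CPM in wild type (log2 fold change -0.71 ± 0.23, adjusted p = 0.0512), also without overlap though not called. Tfap2b, a crest transcription factor, had 245, 229.8 and 292 CPM in Ezh2cKO and 380.2, 330.0 and 324 CPM in wild type (adjusted p = 0.181). Alx1, whose loss causes frontonasal clefts, had 198, 221 and 199 CPM in Ezh2cKO and 193, 226 and 238 CPM in wild type (log2 fold change -0.09 ± 0.17, adjusted p = 0.865, 95% interval -0.43 to 0.25). In 5 of the 8 genes all Ezh2cKO libraries lay below all wild-type libraries, as they did in 14.3% of all genes tested.

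The frontonasal effect of Ezh2 loss was then set against the mean effect in Mx, Md and PA2, by a test of the difference between the 2 effects. Over all genes 114 differences were called higher in FNP (0.554%) and 152 lower (0.739%), 266 in all (1.29%). Without wild-type replicate 1 these counts were 63 and 87, and without Ezh2cKO replicate 1 they were 70 and 86. Without Ezh2cKO replicate 2, 71 were higher, and without wild-type replicate 3, 174 were. Arch libraries of the same genotype and number are taken as separate samples in that test, although they deviated from their group means together in most pairs (median r = 0.291 over 9 pairs of Ezh2cKO libraries and 0.204 over 7 pairs of wild-type libraries, against -0.122 and -0.115 between other numbers). Deviations from a group mean sum to 0, so the values between other numbers are not independent of those between the same numbers. With 1 estimated correlation within them (limma-voom) 66 differences were higher and 84 lower, against 93 and 119 by limma-voom with no correlation. With their mean taken as 1 value per number (limma) 91 were higher and 110 lower. The positional lists split. Among distal arch regulators 5 differences were higher and 1 lower, among maxillary and proximal regulators 8 were higher and 0 lower, and among frontonasal regulators 0 were higher and 5 lower. With the estimated correlation these counts were 4 and 0, 8 and 0, and 0 and 5. Genes of these lists start from unlike wild-type levels in FNP and the arches, which bears on the fold each can show. Dlx1 averaged 0.125 CPM in wild-type FNP and 87.2, 120 and 184 CPM in wild-type Mx, Md and PA2. The part of such levels in the split was not tested. The arch mean can also join opposite changes, as for Dlx6 (1.16, -0.42 and -0.58 in Mx, Md and PA2).

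Dlx2 changed by 3.37 ± 0.42 in FNP and by -0.72 ± 0.10 in the arches, a difference of 4.09 ± 0.42 (adjusted p = 2.01e-08). Meis2 changed by 1.44 ± 0.10 in FNP and -0.05 ± 0.06 in the arches (difference 1.49 ± 0.12, adjusted p = 1.24e-11), and Hand1 by 4.74 ± 0.60 in FNP and 0.20 ± 0.28 in the arches (difference 4.54 ± 0.72, adjusted p = 9.65e-05). In the arches Dlx2 fell (adjusted p = 1.39e-07), and Meis2 and Hand1 were not called. Wild-type Hand1 averaged 0.249, 73.6 and 9.36 CPM in Mx, Md and PA2. Gsc, a homeobox gene of the lower jaw, was the distal gene with a lower difference, at 0.14 ± 0.23 in FNP and 1.31 ± 0.16 in the arches (adjusted p of the difference = 0.026), a difference not called without any 1 Ezh2cKO library or wild-type replicate 1 (adjusted p of 0.0201 to 0.216 over the 6 fits that left out 1 FNP library) or with the arch libraries correlated or averaged (adjusted p = 0.144 and 0.0977). Alx4 changed by -0.57 ± 0.13 in FNP and 0.53 ± 0.08 in the arches (difference -1.10 ± 0.15, adjusted p = 6e-06). Alx1 changed by -0.09 ± 0.17 in FNP and 1.17 ± 0.13 in the arches (difference -1.26 ± 0.22, adjusted p = 0.000384), Six2 by -0.29 ± 0.20 in FNP and 1.44 ± 0.14 in the arches, and Tfap2b by -0.43 ± 0.18 in FNP and 1.45 ± 0.19 in the arches. For the mean of the 3 arches all 4 were called higher in Ezh2cKO (adjusted p of 1.94e-10 to 1.65e-06), and none was called higher in Ezh2cKO frontonasal crest. The arches differed among themselves. In Mx, Md and PA2 the log2 fold change was 0.08, -0.08 and 1.59 for Alx4, 0.22, 0.81 and 2.48 for Alx1, 1.31, 0.59 and 2.41 for Six2 and -0.29, 3.20 and 1.45 for Tfap2b. The arch mean of Alx4 thus came from PA2, where it averaged 22.5 ± 4.16 CPM in Ezh2cKO and 7.50 ± 1.03 CPM in wild type (SD, n = 3 each). The median log2 fold change of the 8 frontonasal regulators was -0.44 in FNP and 0.92 in the arches.

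**Figure D4:**
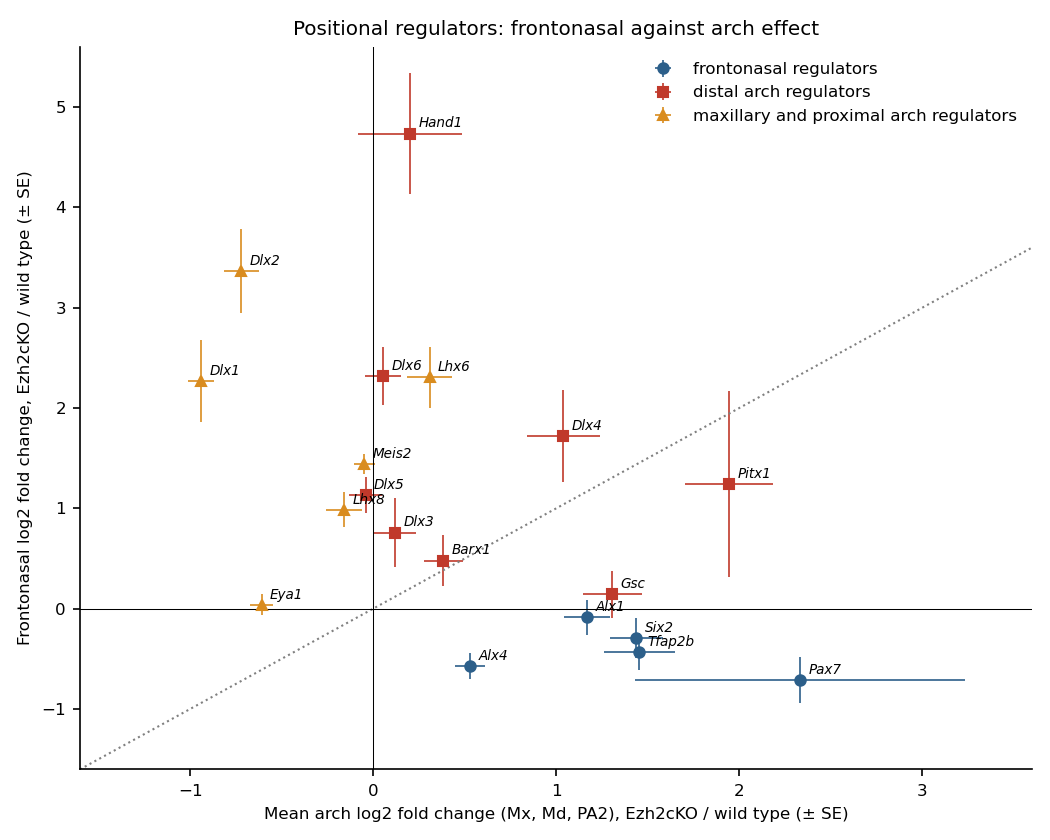
Log2 fold change Ezh2cKO over wild type in FNP (y axis) against the mean of Mx, Md and PA2 (x axis), each ± SE, for positional regulators named here. Frontonasal regulators lie at or below 0 on the y axis and above 0 on the x axis, arch regulators such as Hand1 and Dlx2 lie high on the y axis, the dotted line marks equal effects, and Hand2, Gbx2, Sim2 and Nkx3-2, with 3 or fewer wild-type counts, are left out.

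For the Hox genes the test of the difference called 1 of 39, as higher, beside 0.554% of all genes called higher. Hoxa2, active in wild-type PA2, had no wild-type count in FNP and a fitted difference called at an adjusted p of 0.0429, and not called without Ezh2cKO replicate 1 or 2 or any 1 wild-type library (adjusted p of 0.0483 to 0.141 over the 6 fits that left out 1 FNP library), nor with the estimated correlation (adjusted p = 0.0789). Where a gene has no wild-type count, as 24 of the 39 do in FNP, the fitted difference depends on the prior count.

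Inhibitors of the cell cycle were a further group. Of 7 measured, 4 were called higher and 0 lower, beside 4.97% and 1.83% of all genes, and 3 were called higher without wild-type replicate 1. Cdkn2c, which blocks Cdk4 and Cdk6, had 8.37, 7.66 and 8.02 CPM in Ezh2cKO and 0.672, 1.13 and 0.619 CPM in wild type (log2 fold change 3.30 ± 0.27, adjusted p = 3.27e-12). Cdkn2a (ENSMUSG00000044303, chromosome 4, 89274473 to 89294653), the classical Polycomb target at the Ink4a/Arf locus, had 0.499, 0.434 and 0.217 CPM in Ezh2cKO and 0 counts in each wild-type library, and was at least 10.9-fold higher (adjusted p = 0.000466). Its neighbour Cdkn2b had 1.78, 1.41 and 1.81 CPM in Ezh2cKO and 0 counts in each wild-type library, at least 47.4-fold higher. Cdkn1b changed by 0.40 ± 0.13 (adjusted p = 0.0423), and that call was lost on leaving out any 1 of the 6 libraries (adjusted p of 0.0521 to 0.167). Cdkn1a, the p53-responsive inhibitor, was not called at 1.46, 1.16 and 1.048 CPM in Ezh2cKO and 0.712, 1.06 and 0.977 CPM in wild type.

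Of 16 proliferation genes 0 were called higher and 1 lower (6.25%, beside 1.83% of all genes), the replication helicase gene Mcm6 at -0.30 ± 0.09 (adjusted p = 0.0292). Mcm6 was not called without Ezh2cKO replicate 1 or 2 or wild-type replicate 2 or 3 (adjusted p of 0.00353 to 0.202 over the 6 fits that left out 1 library), nor with no filter or the 6 FNP libraries alone (adjusted p = 0.105 and 0.176). Mki67, which marks cycling cells, had 1448, 1608 and 1597 CPM in Ezh2cKO and 1959, 1638 and 1680.5 CPM in wild type (log2 fold change -0.18 ± 0.13, adjusted p = 0.53), which was no call. The median of the list was -0.13. In 8 of the 16 genes all Ezh2cKO libraries lay below all wild-type libraries, as they did in 14.3% of all genes tested. In 0 of the 16 they lay above. The summed level was 4551 to 4873 CPM in Ezh2cKO and 5232 to 5355 CPM in wild-type libraries. Of 14 p53 targets 2 were called higher (14.3%, beside 4.97% of all genes) and 0 lower, Pmaip1 at 1.13 ± 0.23, which encodes a promoter of apoptosis, and Btg2 at 0.77 ± 0.16 (adjusted p = 0.000602 and 0.000929). Bax was not called, and the median was -0.12.

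About as many regulators listed for other lineages were called higher as were not. The list was not silent in wild-type FNP crest, where its summed level was 75.4 to 80.5 CPM and its highest member averaged 32.2 CPM. In Ezh2cKO the sum was 162 to 169 CPM. Of 24 listed, 21 were tested and 11 were called higher (52.4%, beside 4.97% of all genes), with 0 lower, or 10 without wild-type replicate 1. Tbx5, of the forelimb and heart, had 3.99, 3.58 and 4.12 CPM in Ezh2cKO and 0 counts in each wild-type library, at least 111-fold higher (adjusted p = 1.43e-12). Gata4, of heart and endoderm, had 2.92, 3.14 and 3.07 CPM in Ezh2cKO and 0 counts in each wild-type library, at least 86.6-fold higher (adjusted p = 3.28e-09). The Ezh2cKO libraries lay close together for both. Gata6 had 2.28, 3.29 and 2.85 CPM in Ezh2cKO and 0.277, 0.103 and 0.0651 CPM in wild type (log2 fold change 4.27 ± 0.40, adjusted p = 1.55e-10), and Lhx9, of gonad and limb, changed by 4.54 ± 0.47 (adjusted p = 2.21e-09). Tbx15 and Tbx18, T-box genes of limb, skeleton and somite, already had several CPM in wild type. Tbx15 had 43.9, 47.3 and 49.3 CPM in Ezh2cKO and 7.32, 10.9 and 9.18 CPM in wild type (log2 fold change 2.35 ± 0.17, adjusted p = 1.46e-13), and Tbx18 21.9, 18.1 and 26.6 CPM in Ezh2cKO and 4.90, 4.99 and 2.77 CPM in wild type (log2 fold change 2.40 ± 0.20). Foxa1, Pax2, Six3, Tbx4 and Tlx1 were the other 5, and Tbx4 was not called without wild-type replicate 1 (adjusted p of 0.0112 to 0.0698 over the 6 fits). Cdx2 and Hnf4a had at most 1 count in any of the 6 libraries.

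Of 18 neural regulators 7 were called higher (38.9%, beside 4.97% of all genes) and 0 lower, with a median log2 fold change of 1.597, or 0.88 with genes at 0 counts set at their bound. Lmx1b, a LIM gene of the isthmus and limb that is also used in the head, had 6.52, 6.97 and 8.71 CPM in Ezh2cKO and 1.11, 1.09 and 1.24 CPM in wild type (log2 fold change 2.68 ± 0.30, adjusted p = 8.6e-09). En2, of the midbrain and hindbrain border, had 0.891, 0.831 and 0.723 CPM in Ezh2cKO and 0 counts in each wild-type library, at least 23.2-fold higher (adjusted p = 1.34e-05). Pou3f2 had 1.07, 1.12 and 1.08 CPM in Ezh2cKO and 0.0395, 0.0342 and 0 CPM in wild type, 46.5 times (95% counting interval 12.5 to 389.9) the wild-type level. The proneural and pan-neural genes Neurog2, Sox1, Sox2 and Sox3 were not called. Without wild-type replicate 1, 9 of 18 were called higher.

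Of 14 genes of early crest specification 3 were called higher (21.4%, beside 4.97% of all genes) and 0 lower, with a median log2 fold change of 0.09. Zic1, which acts at the border of the neural plate, had 19.1, 16.7 and 20.1 CPM in Ezh2cKO and 2.49, 2.94 and 1.76 CPM in wild type (log2 fold change 2.96 ± 0.31, adjusted p = 6.39e-09), and Zic2 9.41, 9.97 and 11.1 CPM in Ezh2cKO and 0.870, 0.718 and 0.651 CPM in wild type (log2 fold change 3.77 ± 0.33, adjusted p = 1.12e-10). In the arches Zic1 averaged 6.65, 9.12 and 6.62 CPM in Ezh2cKO Mx, Md and PA2, against 0, 0.0141 and 0.0328 CPM in wild-type Mx, Md and PA2. Zic2 averaged 14.4, 6.86 and 2.49 CPM in Ezh2cKO Mx, Md and PA2, against 0.346, 0.208 and 0 CPM in wild-type Mx, Md and PA2. For both genes the difference of fold changes was called lower in FNP (adjusted p = 1.41e-06 and 0.0314), with fitted arch folds that depend on the prior count where wild type is at 0. The difference of Zic2 was not called without Ezh2cKO replicate 1 or 2 or wild-type replicate 1 or 2 (adjusted p of 0.0373 to 0.112 over the 6 fits that left out 1 FNP library), nor with the estimated correlation of arch libraries (adjusted p = 0.133). Msx2, a target of BMP signals, changed by 0.59 ± 0.17 (adjusted p = 0.0216). Msx2 was not called without Ezh2cKO replicate 1 or 2 or wild-type replicate 2 or 3 (adjusted p of 0.00928 to 0.154 over the 6 fits that left out 1 library). Foxd3 and Snai1 were not called.

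Each of the skeletal and signalling lists held at most 2 higher calls and at most 1 lower, beside 4.97% and 1.83% of all genes. Of 16 cartilage and bone genes 2 were called higher (12.5%), Sox6 among them at 0.39 ± 0.12, and 1 lower (6.25%), the matrix gene Hapln1 at -0.57 ± 0.16 (adjusted p = 0.0341 and 0.0214). Sox6 and Hapln1 were each not called in 4 of the 6 fits that left out 1 library, those without Ezh2cKO replicate 1 or 2 or wild-type replicate 1, together with wild-type replicate 3 for Sox6 and wild-type replicate 2 for Hapln1 (adjusted p of 0.0319 to 0.186 and 0.00382 to 0.217 over the 6). Sox9, the master regulator of cartilage, had 143, 159 and 164 CPM in Ezh2cKO and 140.1, 169 and 167 CPM in wild type (log2 fold change -0.03 ± 0.11, adjusted p = 0.935). Of 8 hedgehog targets 1 was called higher (12.5%), Osr2, which is known from the palate, at 5.35, 6.79 and 5.38 CPM in Ezh2cKO and 0.435, 0.513 and 0.586 CPM in wild type (log2 fold change 3.49 ± 0.29, adjusted p = 8.45e-12), while Ptch1 and Gli1 were not called. Of 13 Wnt targets and secreted inhibitors 2 were called higher (15.4%), the inhibitors Dkk1 at 0.91 ± 0.23 and Frzb at 0.54 ± 0.11 (adjusted p = 0.00828 and 0.000747). Dkk1 was not called without Ezh2cKO replicate 1 or wild-type replicate 2 (adjusted p = 0.0505 and 0.0556). Of 18 FGF and BMP genes 1 was called higher (5.56%, near the share of all genes), the ligand gene Bmp2 at 0.97 ± 0.19 (adjusted p = 0.000613). Of 9 heterochronic and oncofetal genes 0 were called higher and 1 lower (11.1%), Igf2bp2 at -0.25 ± 0.08 (adjusted p = 0.0387), a call that was lost without Ezh2cKO replicate 1 or 2 or wild-type replicate 1 (adjusted p of 0.0242 to 0.363 over the 6 fits that left out 1 library) and also with RLE size factors, no filter, the 6 FNP libraries alone or DESeq2 (adjusted p = 0.0952, 0.207, 0.25 and 0.0683).

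Among imprinted genes all calls were higher. Of 17, 7 were called higher (41.2%, beside 4.97% of all genes) and 0 lower, or 5 without wild-type replicate 1, with a median log2 fold change of 0.42. Peg3, a zinc finger gene expressed from the paternal allele, had 1929, 2044 and 1917 CPM in Ezh2cKO and 1015, 1234 and 1282 CPM in wild type (log2 fold change 0.74 ± 0.08, adjusted p = 1.35e-09). Igf2, the fetal growth factor, had 544, 531 and 545 CPM in Ezh2cKO and 334, 307 and 294 CPM in wild type (log2 fold change 0.79 ± 0.12, adjusted p = 3.31e-06). Plagl1, which encodes a zinc finger factor that activates Igf2 and other imprinted genes, had 217, 253 and 167 CPM in Ezh2cKO and 73.0, 83.8 and 80.1 CPM in wild type (log2 fold change 1.43 ± 0.31, adjusted p = 0.00153). Nnat, Zim1, Peg10 and Phlda2 were the other 4. Phlda2 was not called without Ezh2cKO replicate 1 or 2 or wild-type replicate 1 or 3 (adjusted p of 0.0117 to 0.0766 over the 6 fits that left out 1 library), nor Peg10 without Ezh2cKO replicate 2 or 3 or wild-type replicate 1 (adjusted p of 0.00434 to 0.203 over the same 6). Meg3 was not called. The change of Peg3 was larger than in the arches, where it was 0.08 ± 0.05 (difference 0.66 ± 0.09, adjusted p = 3.52e-06).

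**Figure D5:**
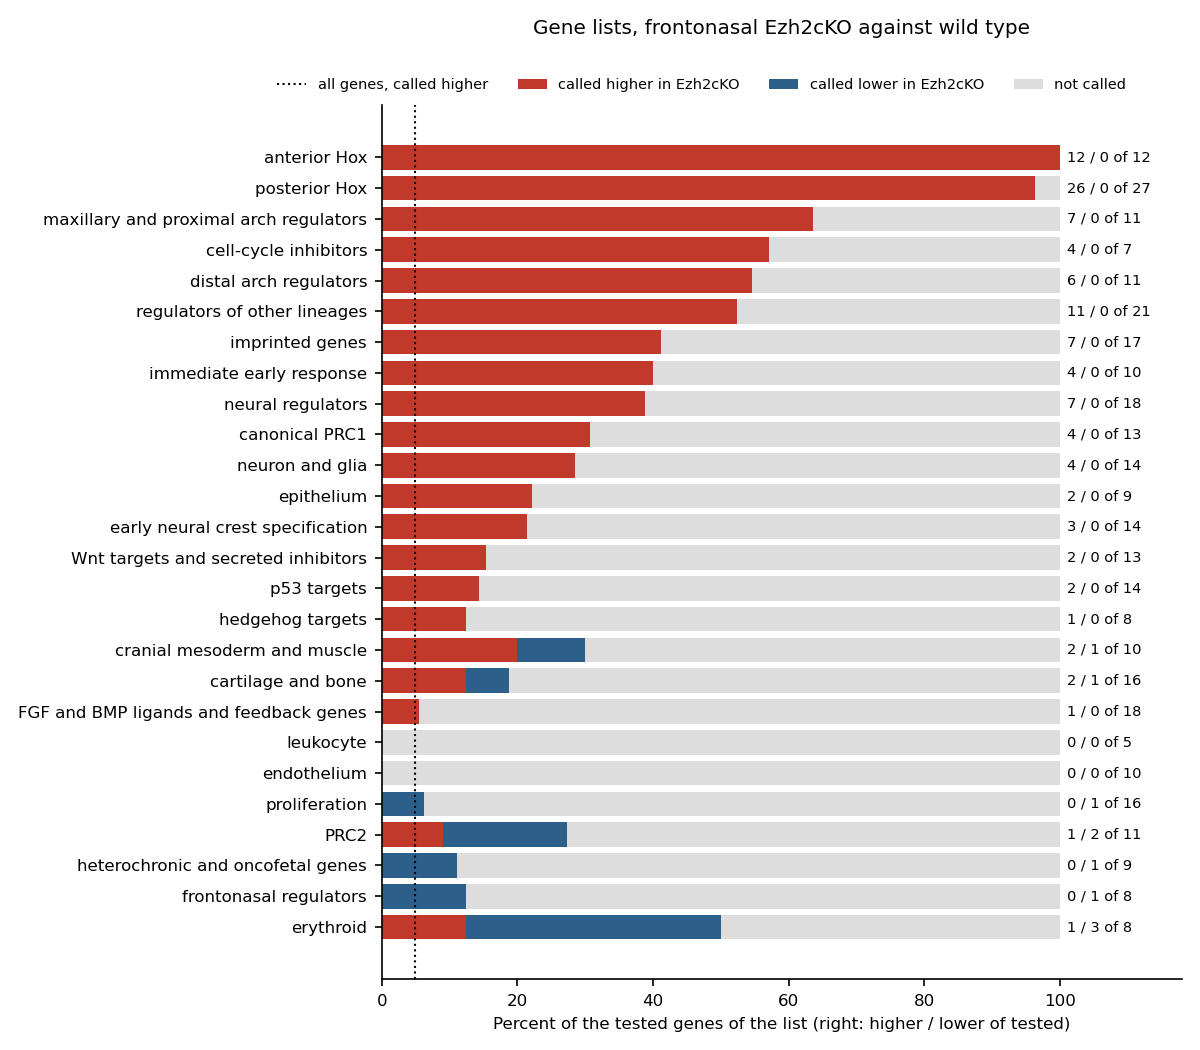
Percent of the tested genes of each list (x axis) called higher, called lower or not called in Ezh2cKO FNP crest, with the counts at the right, and a dotted line at the 4.97% of all genes called higher. Hox genes stand at the top with 12 of 12 and 26 of 27 higher, and the erythroid list at the foot with 1 higher and 3 lower of 8.

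Markers of other cells that dissected tissue could hold were measured in the same libraries, and their counts stand beside 4.97% of all genes called higher and 1.83% lower. Endothelial genes were called in neither direction (0 of 10), and their summed level was 9.44 to 11.96 CPM in Ezh2cKO and 10.7 to 12.2 CPM in wild-type libraries. Of the 5 tested leukocyte genes 0 were called, the sum was 8.96 to 10.0 CPM in Ezh2cKO and 7.86 to 10.6 CPM in wild-type libraries, and Tyrobp, C1qa, C1qb, Itgam and Aif1 had at most 8 counts in any of the 6 libraries. Of 9 epithelial genes Grhl2 and Krt8 were called higher, with a summed level of 14.7 to 16.7 CPM in Ezh2cKO and 8.72 to 18.5 CPM in wild-type libraries. Krt14 had no counts and Krt5 had 0 in Ezh2cKO. Grhl2 had 4.67, 4.91 and 3.54 CPM in Ezh2cKO and 3.24, 1.33 and 0.749 CPM in wild type (log2 fold change 1.33 ± 0.31, adjusted p = 0.00311), while Epcam and Cdh1, which define epithelium, were not called. Grhl2 was not called without wild-type replicate 3 (adjusted p = 0.0546), nor Krt8 without Ezh2cKO replicate 2 or 3 or any 1 wild-type library (adjusted p of 0.0478 to 0.152 over the 6 fits).

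Of 14 neuronal and glial genes 4 were called higher, Pou4f1, Stmn2, Isl1 and Tubb3, or 2 without wild-type replicate 1, and the summed level was 28.5 to 33.5 CPM in Ezh2cKO and 18.0 to 20.4 CPM in wild-type libraries. Stmn2, a neuronal microtubule regulator, had 5.56, 4.41 and 3.22 CPM in Ezh2cKO and 1.03, 0.581 and 0.944 CPM in wild type (log2 fold change 2.37 ± 0.31, adjusted p = 3.53e-07), and Elavl4, Dcx and Neurod1 were not called. Pou4f1 was not called without Ezh2cKO replicate 2 or 3 or any 1 wild-type library (adjusted p of 0.0317 to 0.14 over the 6 fits), nor Tubb3 without Ezh2cKO replicate 1 or wild-type replicate 1 (adjusted p of 0.0252 to 0.193 over the same 6). The part of neurons in the neural calls was not tested. Of 10 genes of cranial mesoderm and muscle 2 were called higher, Tcf21 and Lhx2, and 1 lower. The summed level was 9.47 to 9.72 CPM in Ezh2cKO and 10.7 to 11.2 CPM in wild-type libraries, and Myod1 had 0 counts in Ezh2cKO and 1 in wild type.

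Embryonic globins were lower. Of 8 tested erythroid genes 1 was called higher and 3 lower, and the summed level was 20.9 to 22.04 CPM in Ezh2cKO and 25.5 to 51.4 CPM in wild-type libraries. The gene called higher was Epor, with 1.21, 1.52 and 1.37 CPM in Ezh2cKO and 0.119, 0.273 and 0.553 CPM in wild type (log2 fold change 2.06 ± 0.37, adjusted p = 0.000129). Its groups did not overlap. Hba-x had 1.28, 2.168 and 2.49 CPM in Ezh2cKO and 8.98, 4.68 and 19.3 CPM in wild type (log2 fold change -2.48 ± 0.54, adjusted p = 0.00178), and Hbb-y 0.570, 1.70 and 1.34 CPM in Ezh2cKO and 7.08, 2.97 and 10.52 CPM in wild type (log2 fold change -2.51 ± 0.60, adjusted p = 0.00465). Hba-x and Hbb-y were not called without wild-type replicate 3 (adjusted p = 0.0573 and 0.0547), nor Hbb-y without Ezh2cKO replicate 1 (adjusted p = 0.0501). Hbb-bh1, the third, was not called without Ezh2cKO replicate 1 or wild-type replicate 1 or 3 (adjusted p of 0.003 to 0.15 over the 6 fits). Globin genes share reads with close copies. Alas2, of heme synthesis, was not called at 17.4, 15.5 and 14.7 CPM in Ezh2cKO and 16.1, 16.4 and 16.2 CPM in wild type. The adult genes Hba-a1 and Hba-a2 had no counts.

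Some immediate early genes, which respond within minutes to signals and to handling of cells, were higher. Of 10 tested, 4 were called higher (40.0%, beside 4.97% of all genes) and 0 lower, or 5 without wild-type replicate 1. Fos had 20.8, 21.1 and 14.5 CPM in Ezh2cKO and 1.90, 2.46 and 2.80 CPM in wild type (log2 fold change 2.96 ± 0.31, adjusted p = 2.87e-09). Fosb and Egr2 changed by 2.42 ± 0.39 and 2.38 ± 0.43 (adjusted p = 1.87e-05 and 0.000129), and Egr1 had 34.4, 27.6 and 25.4 CPM in Ezh2cKO and 11.8, 3.96 and 3.35 CPM in wild type (log2 fold change 2.21 ± 0.38, adjusted p = 5.05e-05). Jun, Ier2 and Dusp1 were not called. The changes of Fos, Fosb and Egr1 were larger than in the arches by 2.06 ± 0.35, 2.10 ± 0.44 and 1.79 ± 0.44 (adjusted p of the difference = 0.000312, 0.00441 and 0.0231). The difference of Egr1 was not called without Ezh2cKO replicate 1 or wild-type replicate 2 or 3 (adjusted p of 0.000979 to 0.102 over the 6 fits) or with the arch libraries correlated or averaged (adjusted p = 0.0777 and 0.109). The part of cell handling in these calls was not tested.

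By size alone, among genes at 5 CPM or more on the higher side and with no overlap between libraries, the largest rises outside the groups above were Nr1h5 with a U1 copy inside it, Zc3hav1, She and Nfix. Nr1h5, a nuclear receptor gene, had 100.03, 96.4 and 105 CPM in Ezh2cKO and 0.316, 0.0342 and 0.260 CPM in wild type (log2 fold change 8.95 ± 1.74, adjusted p = 0.000829). In Ezh2cKO arches its counts ran from 0 to 1239 per library, and in wild-type arches of E10.5 from 579 to 1918. Zc3hav1, an antiviral zinc finger gene, had 6.27, 6.505 and 5.64 CPM in Ezh2cKO and 0.316, 0.376 and 0.391 CPM in wild type (log2 fold change 4.06 ± 0.30, adjusted p = 1.97e-13). She, which encodes an SH2-domain adaptor, changed by 3.75 ± 0.27 and Nfix, a nuclear factor I gene, by 3.53 ± 0.31 (adjusted p = 9.84e-14 and 3.9e-11).

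The largest falls were smaller than the largest rises. Beyond the globins and Ezh2 itself they included Cxcl13, H2-T24, Ptgfr, Pde1c, Tagap1, Hpgd, Calcrl and Car12. Hpgd, which degrades prostaglandins, had 33.6, 38.0 and 38.2 CPM in Ezh2cKO and 78.1, 72.2 and 75.3 CPM in wild type (log2 fold change -1.04 ± 0.18, adjusted p = 7.71e-05). Calcrl, a receptor for adrenomedullin, had 7.45, 7.37 and 6.76 CPM in Ezh2cKO and 15.7, 15.7 and 12.5 CPM in wild type (log2 fold change -1.02 ± 0.14, adjusted p = 1.05e-06). The other falls named lay between -1.83 ± 0.38 for Cxcl13, a chemokine gene, and -1.001 ± 0.184 for Car12, a carbonic anhydrase gene. Cxcl13 and H2-T24 were not called without wild-type replicate 1 (adjusted p = 0.0615 and 0.102), and H2-T24 shares sequence with other genes of its family. Pde1c, a phosphodiesterase gene, had 13.4, 15.4 and 11.1 CPM in Ezh2cKO and 18.1, 18.0 and 56.2 CPM in wild type, and was not called without wild-type replicate 3 (adjusted p = 0.325).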

How the data were processed

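RNA-seq counts per gene were deposited by the authors as whole numbers in 1 table of 47 libraries. Libraries were made with an unstranded kit (ScriptSeq v2) and read as single ends of 50 bases, per the labels' protocols. The submitters' processing notes name bcl2fastq 2.17 and the builds GRCm38 and mm10, and the aligner and the counter are not named there. The 22 repeated columns were identical and the first copy was used.

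The deposited counts were fitted with edgeR 4.0.16 (R 4.3.3, limma 3.58.1), with TMM scaling, in 1 quasi-likelihood model of 16 groups with 31 residual degrees of freedom. The filter by group (minimum count 10, minimum total 15) kept 20560 of 38215 genes. Genes were called at an adjusted p under 0.05 (Benjamini-Hochberg). Standard errors of log2 fold changes were worked back from the test, as the absolute log2 fold change over the square root of its F statistic. The 95% intervals of log2 fold changes were built from these standard errors by the normal distribution. The difference from the arches is the FNP log2 fold change minus the mean of those of Mx, Md and PA2. CPM use TMM-scaled totals. Folds against 0 wild-type counts use a floor of 3 counts over the group, and ratios over 1 to 3 counts have 95% exact counting intervals, which cover counting error only. The script was tested on simulated data. Alternatives were RLE scaling, no filter, fewer libraries, no mitochondrial genes, DESeq2 1.42.0, a replicate block and leaving out each library. List counts without wild-type replicate 1 were added after seeing the data, as were 3 limma fits of the difference from the arches, limma-voom, limma-voom with a correlation (0.209) within arch libraries of 1 genotype and number, and limma on log2 CPM (prior count 2) with those libraries averaged to 1 value per number.

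Named genes were Ezh2, Hoxa2 and Hand2, the 12 largest rises and 12 largest falls among called genes of at least 5 CPM without overlap and with a gene name other than a Gm number, a Rik or a clone name, up to 4 called members per list, the Hox genes, and the 6 highest and 6 lowest differences from the arches. Other genes named here, among them uncalled list members, Skap2 and the genes inside the clusters, were chosen after their values were seen. Some genes that this rule names are not reported here. The members and lists were chosen with earlier results of these data known.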

Additional observations from a re-analysis of the deposited data

Results flagged for a closer look

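For 39 genes named here the effect of Ezh2 loss in frontonasal crest differed from its mean effect in Mx, Md and PA2, by a test of the difference between the log2 fold changes (edgeR's quasi-likelihood test with Benjamini-Hochberg adjustment over all genes). Over all 20560 genes 266 differed, which is 1.29%. The values below are the log2 fold change Ezh2cKO over wild type in FNP minus that in the arches, so a positive one means a larger rise or smaller fall in FNP. The groups being compared do not share control libraries.

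Regulators of arch position made up many of the higher differences. They were 4.54 for Hand1, 3.21 for Dlx1, 4.09 for Dlx2, 1.17 for Dlx5, 2.26 for Dlx6, 1.999 for Lhx6 and 1.14 for Lhx8, and 1.49 for Meis2 and 0.65 for Eya1. For genes with 3 or fewer wild-type FNP counts the fitted difference depends on the prior count, and it was 6.64 for Hoxa2, 6.88 for Hand2, 6.32 for Gbx2, 4.28 for Sim2 and 10.37 for the U1 copy inside Nr1h5, which had 1 such count. Frontonasal regulators differed the other way, with -1.26 for Alx1, -1.10 for Alx4, -1.88 for Tfap2b and -1.73 for Six2. Positional genes start from unlike wild-type levels in FNP and the arches, which bears on the fold each can show. Lower differences were also found, -1.16 for Gsc, -6.10 for Zic1 and -2.78 for Zic2, the last 2 being genes of the neural plate border whose fitted arch folds rest on wild-type levels at or near 0.

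Among immediate early genes the differences were 2.06 for Fos, 2.10 for Fosb, 1.79 for Egr1 and -0.56 for Jun. Among signalling, skeletal and imprinted genes they were 1.63 for Osr2, 0.77 for Msx2, 0.50 for Frzb, 0.79 for Sox6 and 0.66 for Peg3. Other higher differences were 10.17 for Nr1h5, 1.45 for Zc3hav1 and 2.03 for Mab21l1, where Nr1h5 and that U1 copy share their reads' region. Other lower differences were -2.23 for Crtac1, -1.61 for Ptgfr, -1.27 for Wisp1, -1.08 for Calcrl, -0.997 for Hpgd and -1.24 for Epcam.

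Of the 39 differences, 26 were called under each of the 15 alternatives that could give one, 13 were lost under at least 1, and 0 changed sign. The 13 were those of Egr1, Frzb, Gsc, Hand2, Hoxa2, Hpgd, Jun, Msx2, Nr1h5, Osr2, Ptgfr, Zc3hav1 and Zic2. With a correlation estimated within arch libraries of 1 genotype and number, 29 of the 39 were called, and with those libraries averaged 35 were.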

How the results depend on the processing

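Across 7 other settings and 6 fits that each left out 1 FNP library, 1022 genes called higher became 792 to 1465, and 376 called lower became 153 to 718. The other settings were RLE size factors, no filter, 23 libraries of E10.5, 6 FNP libraries, no mitochondrial genes, DESeq2 and a replicate block. The fit on 23 libraries called 2183 in all (718 lower), against 1398 (376 lower), and the fit on the 6 FNP libraries called 153 lower. Leaving out 1 library gave 950 to 1251 calls, 792 to 850 higher and 158 to 413 lower. Lower calls numbered 164, 158 and 236 without Ezh2cKO replicates 1, 2 and 3, and 174 without wild-type replicate 1. The cause was not tested.

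For the difference from the arches, 266 calls (114 higher, 152 lower) became 545 (179 and 366) with 23 libraries and 411 (175 and 236) with DESeq2, and without the filter 229 were lower. With arch libraries of 1 genotype and number correlated, chosen after seeing the data, there were 150 (66 and 84). Leaving out 1 library gave 150 to 371 calls, 63 to 174 higher and 86 to 197 lower. Both ends lay with wild-type libraries, replicate 1 for 150 and 63, and replicate 3 for 371 and 174. Without Ezh2cKO replicate 1 there were 156 calls, 70 higher and 86 lower, and without its replicate 2 there were 71 higher.

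Of 143 named genes, Epor not counted, 102 were called, 73 of them in every one of these settings that tested them. Of the 29 lost somewhere, 17 were lost only on leaving out a library. Otherwise the 6 FNP libraries alone lost Eed, Grhl2, Hapln1, Hbb-bh1, Igf2bp2, Mcm6, Pde1c, Peg10 and Tagap1, and DESeq2 lost Cxcl13, Eed, Hotair, Hoxa4 and Igf2bp2. RLE lost Eed and Igf2bp2, no filter Hoxa4, Igf2bp2 and Mcm6, no mitochondrial genes Eed, and the block Eed and Hoxa4. No called gene changed sign. Uncalled genes near 0 did. Where 1 library was left out their log2 fold changes ran over -0.466 to 0.0555 for Six2, -0.102 to 0.0196 for Alas2, -0.0900 to 0.116 for Ezh1, -0.126 to 0.114 for Pdgfra, -0.0380 to 0.162 for Ptch1 and -0.113 to 0.0244 for Sox9. With the 6 FNP libraries they were 9.76e-05 for Alas2 and 0.000527 for Sox9.

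Same-numbered Ezh2cKO and wild-type libraries did not clearly deviate together (r = 0.0192, 0.0651 and -0.0706 over 11004 genes). Not every library correlated best with its own number, and no pairing was used in the main fit. Deviations from a group mean sum to 0, so this check cannot tell whether same-numbered libraries shared a litter or a day. With the replicate block 1349 genes were called in FNP (1010 higher, 339 lower) and 273 differed from the arches. Fits with 2 libraries in a group take the spread from all groups. Genes of few counts are limited by depth, where 3 counts over a group stand for 0.036 CPM in Ezh2cKO and 0.0352 CPM in wild type.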

Other observations

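Counts over Nr1h5 (chromosome 3, 102939658 to 102964133, GRCm38), which holds a copy of the small nuclear RNA gene U1 (102951949 to 102952113), differed between libraries of 1 genotype. The 3 Ezh2cKO FNP libraries had 2668 to 2904 counts, against 1 to 8 in the 3 wild-type FNP libraries. In the arches the Ezh2cKO libraries had 0 in all 3 of replicate 1, 252 to 454 in the 3 of replicate 2 and 839 to 1239 in the 3 of replicate 3, against 579 to 1918 in the 8 wild-type libraries. The 21 libraries of E11.5 and of the HoxA2OE genotype had 0 to 1. The U1 copy had 157 to 168 counts in Ezh2cKO FNP and 0 to 1 in wild-type FNP.

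Skap2, the Src kinase adaptor gene beside the HoxA cluster, changed in the arches as well. Its log2 fold change was 2.96 ± 0.23 in FNP and 2.44 ± 0.14 in the arches, and the difference of 0.52 ± 0.27 was not called (adjusted p = 0.471 by edgeR's quasi-likelihood test).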
